A study of Mus musculus with 44 samples.

Results

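The 6 genes Zfp36, Dusp1, Dnajb1, Atf4, Manf and Creld2 were followed across single mouse cells, to ask whether transcripts of different stress responses marked the same cells and how their levels went with library depth. They are named rows of a deposited table of 3613 genes and 44 cells, and all 6 had reads on both plates. Neonatal calvarial cells of C57BL/6J mice were cultured for 16 h, and cells positive for CD45 and F4/80 and negative for CD41 were sorted from them for capture on a Fluidigm C1 chip. The 20 with-MK cells came from cultures given 50000 megakaryocytes and were all on plate 7, against 24 without-MK cells, from cultures given none and all on plate 3, by the treatment field of the labels. The titles of both groups name megakaryocytes, which conflicts with that field for the without-MK cells. Plate, capture and treatment cannot be told apart. The labels do not say which culture or animal a cell came from, so a group is treated as 1 sample, its cells are no replicates, and the groups were compared without a test.

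The genes stand for separate arms of the stress response. Immediate early genes are transcribed within minutes of a stimulus from factors already present in the cell, and in macrophages the group includes brakes on inflammation: Zfp36 encodes tristetraprolin, which binds AU-rich elements and speeds decay of cytokine mRNAs, and Dusp1 encodes a phosphatase that switches off p38 and JNK. Dnajb1 encodes an HSP40 co-chaperone of HSP70 and is a target of the heat shock factor HSF1. Atf4 encodes the transcription factor at the centre of the integrated stress response, whose output is controlled mainly at translation. Manf and Creld2 encode endoplasmic reticulum (ER) proteins that are secreted when folding in the ER is disturbed, and both are targets of the unfolded protein response.

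Marker genes separated the plates. The median depth was 834834.5 library reads per cell (69181 to 1212604) in with-MK cells, against 527930 (270537 to 714465) in without-MK cells, and with-MK cells 11 and 16 had under 100000. Of 24 macrophage markers 21 were listed, and their summed level had a median of 29015 CPM (9989 to 65820), that is, reads per 1e+06 library reads, in with-MK cells, against 12.3 CPM (0 to 176) in without-MK cells. Of 20 stromal markers 8 were listed, and their sum had a median of 11.2 CPM (3.88 to 196) in with-MK cells, against 11877 CPM (4778 to 99168) in without-MK cells. Neither pair of ranges overlapped. Reads of Ptprc, the CD45 gene, were seen in 20 of 20 with-MK cells, against 1 of 24 without-MK cells, so the without-MK cells lacked defining transcripts of the sorted type. Those of Adgre1, the F4/80 gene, were seen in 17 of 20 with-MK cells, against 1 of 24 without-MK cells. Of 12 megakaryocyte markers only Pf4 was listed, with reads in 16 of 20 with-MK cells and 5 of 24 without-MK cells, and 2 of 8 neutrophil and 0 of 6 endothelial markers were listed. Every difference between the groups below moves with these markers, and their part in it was not tested. Actb, an actin gene, took a median of 7.68% of library reads in with-MK cells, against 3.40% in without-MK cells.

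Zfp36 lies on the minus strand at chr7:28376784-28380253 (mm10, GENCODE vM21), Dusp1 on the minus strand at chr17:26505590-26562128, Dnajb1 on the plus strand at chr8:83608193-83612653, Atf4 on the plus strand at chr15:80255184-80257541, Manf on the minus strand at chr9:106838312-106891979 and Creld2 on the plus strand at chr15:88819646-88826683. All 6 are protein-coding genes. The authors' counting is not stated to use strand, so reads cannot be told apart where exons overlap those of another gene: Gm44710 on the opposite strand of Zfp36, Ergic1 opposite Dusp1, Rbm15b on the strand of Manf, and Dcaf1 and 4930524O07Rik opposite Manf. Of these, Ergic1 was listed with reads of its own, and its rank correlation with Dusp1 was 0.10 over the 20 plate 7 cells and −0.04 over the 24 plate 3 cells.

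Promoters of the genes are shown for the signals that stress factors are known to read. RefSeq (GRCm38.p6) promoter windows, 250 bases before to 50 bases after the transcript start, were matched for 5 of the 6 genes, all but Manf. The ER stress response element, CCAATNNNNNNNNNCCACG, through which ATF6 and XBP1 act on chaperone genes, was found on either strand in 0.119% of 32851 promoters. It was present in Creld2 and in Hsp90b1, Hspa5 and Pdia6, the 3 genes most like Manf across the plate 3 cells, described further on. The 250 bases before the start are printed 5′ to 3′ on the strand of the gene, with the matches in capitals. In Creld2 the element was centred 117 bases before the start on the antisense strand, in Hspa5 56 bases and in Pdia6 89 bases before it on the sense strand. Hsp90b1 had 2 matches, centred 203 bases before the start on the sense strand and 98 bases before it on the antisense strand.
Creld2 (chr15:88819396-88819645, plus strand): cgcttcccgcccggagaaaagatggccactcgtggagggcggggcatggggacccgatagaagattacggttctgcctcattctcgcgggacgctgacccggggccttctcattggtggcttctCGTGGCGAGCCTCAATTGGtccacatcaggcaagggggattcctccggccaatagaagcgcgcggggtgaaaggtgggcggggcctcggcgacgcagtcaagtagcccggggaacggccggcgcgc
Hsp90b1 (chr10:86705445-86705694, minus strand): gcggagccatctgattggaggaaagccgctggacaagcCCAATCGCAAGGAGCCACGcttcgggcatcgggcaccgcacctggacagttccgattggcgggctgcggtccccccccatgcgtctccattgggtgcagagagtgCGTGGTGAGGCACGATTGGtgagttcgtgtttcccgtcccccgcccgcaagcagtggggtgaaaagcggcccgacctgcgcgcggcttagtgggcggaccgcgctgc
Hspa5 (chr2:34771840-34772089, plus strand): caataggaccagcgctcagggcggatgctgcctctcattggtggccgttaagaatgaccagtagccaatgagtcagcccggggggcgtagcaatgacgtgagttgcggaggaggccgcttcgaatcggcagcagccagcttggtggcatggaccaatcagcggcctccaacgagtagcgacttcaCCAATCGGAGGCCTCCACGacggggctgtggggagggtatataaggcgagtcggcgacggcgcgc
Pdia6 (chr12:17266339-17266588, plus strand): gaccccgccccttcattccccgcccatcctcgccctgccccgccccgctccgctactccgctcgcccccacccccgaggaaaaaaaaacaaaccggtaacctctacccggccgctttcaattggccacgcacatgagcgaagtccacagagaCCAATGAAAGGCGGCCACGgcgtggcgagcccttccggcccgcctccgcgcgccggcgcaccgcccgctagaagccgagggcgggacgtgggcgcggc

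The immediate early pair carried other elements. In Dusp1 the capitals mark a cAMP response element, TGACGTCA, the same on both strands, centred 139.5 bases before the start, a motif held by 1.79% of the promoters. In Zfp36 they mark a CArG box, the site of serum response factor, centred 53.5 bases before the start (1.63% of the promoters), and an EGR motif, GCGNGGGCG, centred 101 bases before it on the sense strand (5.55%). No printed match overlapped another.
Dusp1 (chr17:26508473-26508722, minus strand): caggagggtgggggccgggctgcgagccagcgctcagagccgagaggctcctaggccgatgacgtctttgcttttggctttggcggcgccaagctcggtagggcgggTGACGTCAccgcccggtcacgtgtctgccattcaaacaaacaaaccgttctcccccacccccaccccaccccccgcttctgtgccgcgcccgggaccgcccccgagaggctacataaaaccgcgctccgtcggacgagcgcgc
Zfp36 (chr7:28379229-28379478, minus strand): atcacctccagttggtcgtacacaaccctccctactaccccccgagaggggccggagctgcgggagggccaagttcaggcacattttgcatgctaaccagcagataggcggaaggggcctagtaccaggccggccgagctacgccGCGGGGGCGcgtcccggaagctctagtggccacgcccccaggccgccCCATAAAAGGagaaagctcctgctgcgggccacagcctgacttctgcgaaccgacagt
The heat shock element core GAANNTTC, the same on both strands and held by 7.86% of the promoters, was not found in these windows of the 5 matched genes. Other spellings of that element were not searched, so this does not say that a window lacks it. Searched on both strands, the element TGATGNAA read by ATF4 with C/EBP partners (3.97%) and the AP-1 motif TGANTCA (7.81%) were not found in these windows either. A match is only a match of letters, and none says that a factor was bound.

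Zfp36 was read in every with-MK cell and had a much lower pooled level in without-MK cells. Its lowest, median and highest levels were 1.23, 425 and 1888 CPM in with-MK cells, against 0, 1.98 and 189 CPM in without-MK cells. Cells 9, 1 and 15 were highest among with-MK cells, and cells 21, 18 and 1 among without-MK cells, where cell 21 alone held 46.98% of the reads. The groups overlapped: 6 of 20 with-MK cells, namely 13, 7, 14, 19, 2 and 3, lay between 1.23 and 115 CPM, within the range of the without-MK cells. Summed over cells, Zfp36 had 8978 reads (95% exact Poisson interval 8793 to 9166) in with-MK cells, against 281 (249 to 316) in without-MK cells, which is 574 against 22.6 CPM. The ratio was 25.4 (22.5 to 28.7, exact binomial), or 4.66 on the log2 scale, and 5.25 without the top cell of each group. A read was seen in 20 of 20 with-MK cells, against 14 of 24 without-MK cells (58.3%, Clopper-Pearson interval 36.6 to 77.9), and at least 10 CPM in 19 with-MK cells, against 10 without-MK cells. As a measure of stray reads, the stromal gene Sparc had 1 to 7 reads, median 3, in every with-MK cell. With-MK cell 13, with 1 read of Zfp36, is at that level. Over all without-MK cells Ptprc and Adgre1 had 1 read each, and Pf4 had 6. Of the 14 without-MK cells with Zfp36, 7 had 1 to 7 reads, but the Sparc level comes from the other plate. Intervals cover counting error only.

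Dusp1 was also higher in with-MK cells, but the without-MK cells divided into cells with hardly any and cells at with-MK levels. It had a lowest, median and highest level of 0, 195 and 845 CPM in with-MK cells, against 0, 1.77 and 437 CPM in without-MK cells. With-MK cells 8, 18 and 9 were highest and cell 20 was the only one at 0. Of the without-MK cells 11 had no read and 5 had 1 to 5 reads, while cells 24, 17 and 13 reached 437, 435 and 328 CPM, above the with-MK median. Pooled, Dusp1 had 348 CPM (5442 reads, 5298 to 5589) in with-MK cells, against 93.2 CPM (1157 reads, 1091 to 1226) in without-MK cells, a ratio of 3.73 (3.50 to 3.98), or 1.90 on the log2 scale. At least 10 CPM was reached in 18 of 20 with-MK cells and 8 of 24 without-MK cells.

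Dnajb1 ran the other way. Its lowest, median and highest levels were 0, 0 and 63.6 CPM in with-MK cells, against 0, 41.6 and 477 CPM in without-MK cells. Only 7 of 20 with-MK cells had a read, 4 of them with 1 to 5 reads, and cells 20, 11 and 12 were the highest of them, at 63.6, 57.8 and 50.4 CPM. The value of cell 11 rests on 4 reads in a library of 69181. Of the without-MK cells 19 of 24 had a read, each at 10 CPM or more, and cells 24, 9 and 11 were highest. The groups overlapped: all 20 with-MK cells lay within the without-MK range, which includes 5 cells at 0, and with-MK cells 20, 11 and 12 lay above the without-MK median. Pooled levels were 7.55 CPM (118 reads) in with-MK cells, against 107 CPM (1324 reads) in without-MK cells, a level 14.1-fold (11.7 to 17.2) lower in with-MK cells, or −3.82 on the log2 scale. With each cell thinned to 310000 reads, 4 of 18 with-MK cells and 18 of 22 without-MK cells kept a read, so the difference in detection remained at equal depth.

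Atf4 was read in every without-MK cell and varied widely among with-MK cells. It had a lowest, median and highest level of 0, 70.0 and 1543 CPM in with-MK cells, against 19.3, 360 and 1219 CPM in without-MK cells. All 24 without-MK cells had at least 10 CPM, against 14 of 20 with-MK cells, of which cells 7 and 18 had no read. With-MK cells 6, 10 and 4 stood highest, and cell 6 held 27.04% of the group's reads. The groups overlapped: 13 of 20 with-MK cells lay within the range of the without-MK cells, and all 24 without-MK cells within that of the with-MK cells. In log2(CPM + 1) the level was 5.79 ± 3.33 in with-MK cells, against 8.34 ± 1.29 in without-MK cells (SD between cells, n = 20 and 24 cells of 1 sample each). The pooled ratio was 0.581 (0.557 to 0.605), or −0.78 on the log2 scale, from 258 CPM in with-MK cells, against 445 CPM in without-MK cells.

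Manf, like Atf4, was read in every without-MK cell. It had a lowest, median and highest level of 0, 98.7 and 478 CPM in with-MK cells, against 45.9, 164 and 689 CPM in without-MK cells. With-MK cells 18, 5 and 20 and without-MK cells 11, 19 and 8 were highest, and with-MK cells 15 and 16 had no read. The groups overlapped in part: 13 of 20 with-MK cells lay within the range of the without-MK cells, and 21 of 24 without-MK cells within that of the with-MK cells. The pooled level was 149 CPM in with-MK cells, against 271 CPM in without-MK cells, a ratio of 0.548 (0.519 to 0.578), or −0.87 on the log2 scale.

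Creld2, the other ER gene, was sparse, and its pooled ratio turned on a single cell. Its lowest, median and highest levels were 0, 0 and 1145 CPM in with-MK cells, against 0, 22.4 and 404 CPM in without-MK cells. Of the with-MK reads 66.2% lay in cell 2, and the next cells, 5 and 17, were at 153 and 145 CPM. Without-MK cells 6, 8 and 2 were highest, at 404, 363 and 330 CPM. A read was seen in 9 of 20 with-MK cells, against 18 of 24 without-MK cells. The pooled level was 106 CPM in with-MK cells, against 92.1 CPM in without-MK cells, a ratio of 1.15 (1.07 to 1.24), or 0.20 on the log2 scale. The log2 ratio turned to −1.02 without cell 2 of each group, the cell with the most reads of Creld2.

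**Figure D1:**
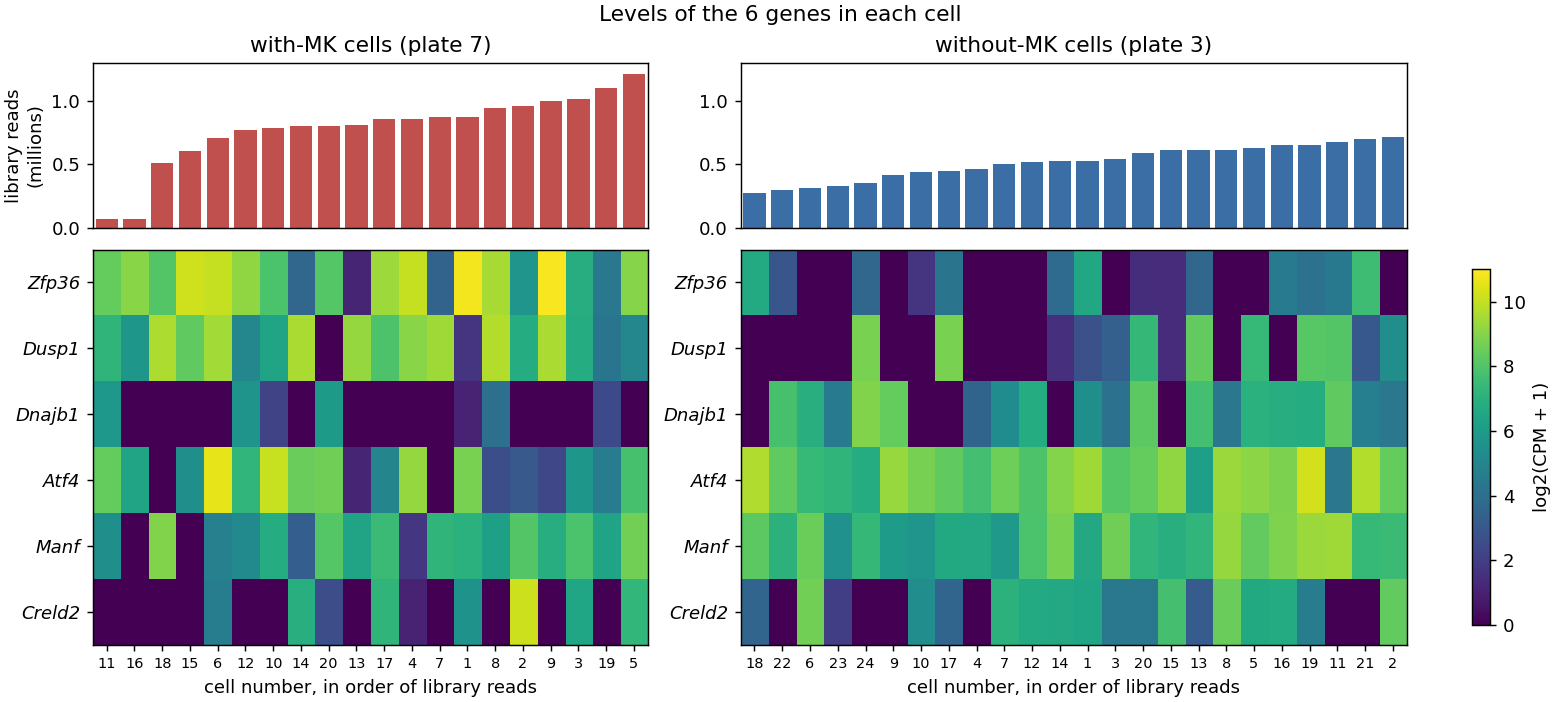
Levels of the 6 genes, as log2(CPM + 1) by colour, in each of 20 with-MK cells (left) and 24 without-MK cells (right), ordered by library reads, which the bars give in units of 1e+06. Colours compare cells along the row of a gene, not genes. Some cells are among the highest for a pair of genes, such as with-MK cell 9 (1888 CPM of Zfp36 and 782 CPM of Dusp1). A cell highest in one gene could be low in another. The with-MK cell highest in Atf4 (cell 6, 1543 CPM) had 0 CPM of Dnajb1, and the one highest in Creld2 (cell 2, 1145 CPM) had 7.31 CPM of Atf4.

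The 6 genes had no common direction between the groups. Zfp36 and Dusp1 were at least 2-fold higher in with-MK cells, 2 of 6 beside 24.4% of the 3271 genes read in 10 or more of the 44 cells, and Dnajb1 was at least 2-fold lower, 1 of 6 beside 28.3%. The median log2 ratio was −0.29 over the 6 genes and −0.14 over all genes compared. With the reads of the listed genes as the total in place of library reads, Atf4 and Manf also passed 2-fold lower, at −1.05 and −1.13.

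Immediate early genes lay on both sides of 0 between the groups. Of 48 immediate early genes 16 were listed and 15 compared, Zfp36 and Dusp1 among them: 7 (46.7%, beside 24.4% of all genes compared) were at least 2-fold higher in with-MK cells and 5 (33.3%, beside 28.3%) at least 2-fold lower, with a median log2 ratio of 0.95, beside −0.14 over all genes. Beside Zfp36, the largest ratios belonged to Tnfaip3, which encodes the NF-κB inhibitor A20 (439 CPM in with-MK cells, against 40.3 CPM in without-MK cells, log2 ratio 3.45), and to Btg1, an antiproliferative gene (3250 CPM in with-MK cells and 646 CPM in without-MK cells, 2.33). Fos was higher in with-MK cells (616 CPM, against 165 CPM in without-MK cells, 1.90), and without-MK cells had 97.4 CPM of it without their cell 11. Egr1 was lower in with-MK cells (406 CPM, against 842 CPM in without-MK cells, −1.05). Its log2 ratio was −0.88, under 2-fold, without the richest cell of each group. The Tnfaip3 reads of without-MK cells lay almost all in cell 21, and without that cell the group had 3.33 CPM.

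Most heat shock genes had a lower pooled level in with-MK cells. Of 22 genes 12 were listed, Dnajb1 among them, and 10 had a log2 ratio below 0. None was at least 2-fold higher, beside 24.4% of all genes, 6 of 12 were at least 2-fold lower, beside 28.3%, and 6 were within 2-fold, with a median log2 ratio of −1.06, beside −0.14. The mitochondrial chaperonin gene Hspd1 had 68.0 CPM in with-MK cells, against 251 CPM in without-MK cells (−1.88), and Stip1, which encodes the co-chaperone that links HSP70 to HSP90, had 80.8 CPM in with-MK cells and 297 CPM in without-MK cells (−1.88). Ahsa1 and Hsbp1 were the exceptions in sign, at 0.40 and 0.09.

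ER folding and quality control genes showed no common direction. Of 36 genes 26 were listed and 24 compared, Manf and Creld2 included: 3 (12.5%, beside 24.4% of all genes) were at least 2-fold higher in with-MK cells and 3 (12.5%, beside 28.3%) at least 2-fold lower, with a median log2 ratio of 0.05, beside −0.14. With the cell richest in each gene left out of each group, the counts were 2 higher and 5 lower. Hyou1, an ER chaperone gene, had 10.5 CPM in with-MK cells, against 50.4 CPM in without-MK cells (−2.27), the sensor gene Atf6 had 85.9 CPM in with-MK cells and 209 CPM in without-MK cells (−1.28), and the ER oxidase gene Ero1lb had 22.6 CPM in with-MK cells and 5.72 CPM in without-MK cells (1.98). Single cells carried much of these: without the richest cell, Hyou1 had 3.68 CPM in with-MK cells and 30.5 CPM in without-MK cells, Atf6 had 48.2 CPM in with-MK cells, and Ero1lb had 1.26 CPM in without-MK cells. The chaperone genes Hspa5 and Hsp90b1, with 1747 and 1392 CPM in with-MK cells against 2037 and 1495 CPM in without-MK cells, had log2 ratios of −0.22 and −0.10.

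Genes of the ATF4 programme lay on both sides of 0. Of 42 genes 13 were listed, Atf4 included, with 3 (23.1%, beside 24.4% of all genes) at least 2-fold higher in with-MK cells and 6 (46.2%, beside 28.3%) at least 2-fold lower, and a median of −0.78, beside −0.14. The cystine transporter gene Slc7a11 had 342 CPM in with-MK cells, against 61.1 CPM in without-MK cells (2.49). Without cell 9, which held the most reads of it in each group, it had 211 CPM in with-MK cells and 31.6 CPM in without-MK cells. By CPM, with-MK cell 16 stood above cell 9 (7613 against 2265 CPM), in a library of 71585 reads, and was kept. Cebpb, a partner factor of ATF4, had 30.7 CPM in with-MK cells and 4.43 CPM in without-MK cells (2.79). Eif4ebp1, which encodes a translation repressor, had 29.5 CPM in with-MK cells and 186 CPM in without-MK cells (−2.66), and the aminoacyl-tRNA synthetase genes Tars, Sars, Eprs and Nars had log2 ratios of −1.84, −1.23, −1.12 and −0.58. Without the richest with-MK cell, the with-MK level was 49.1 CPM for Tars and 43.3 CPM for Sars, against 76.9 and 86.6 CPM with it.

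Of 16 transcripts that tristetraprolin is known to destabilise 4 were listed. In with-MK cells 2 were at least 2-fold higher, beside 24.4% of all genes compared, and 1 at least 2-fold lower, beside 28.3%. The chemokine genes Ccl3 and Cxcl2 had 884 and 1000 CPM in with-MK cells against 0.242 and 2.90 CPM in without-MK cells. The Ccl3 value of without-MK cells rests on 3 reads, so its ratio of 3657 has a counting interval of 1251 to 17733, and the Cxcl2 value would be 0.992 CPM without cell 6. Ptgs2, which encodes cyclooxygenase-2, had 182 CPM in with-MK cells, against 733 CPM in without-MK cells (−2.01). Within a plate, the rank correlation with Zfp36 was 0.38 for Ptgs2, 0.22 for Cxcl2, −0.01 for Ccl3 and −0.29 for Ccl2 on plate 7, and −0.35 for Ptgs2 and −0.13 for Ccl2 on plate 3. An effect of Zfp36 on these transcripts was not tested. Of 5 genes for MAP kinases that DUSP phosphatases act on, 2 were listed: Mapk3 had a log2 ratio of 1.94 and Mapk14, which encodes p38α, had 1.51. Both were thus at least 2-fold higher in with-MK cells, beside 24.4% of all genes compared.

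**Figure D2:**
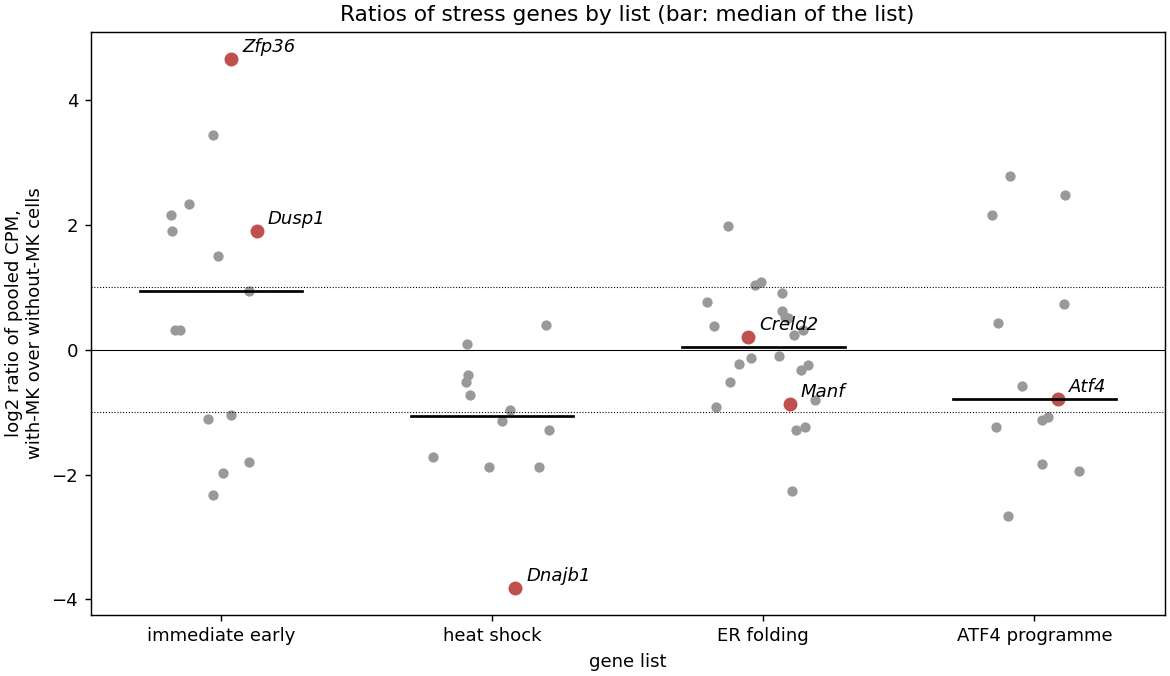
Log2 ratio of pooled CPM, with-MK over without-MK cells, for every gene compared in the 4 stress lists, with the 6 genes in red, the other genes in grey, a bar at each list's median and dotted lines at 2-fold. Heat shock genes lie mostly below 0 (median −1.06), ER genes lie around it (0.05), and Zfp36 (4.66) and Dnajb1 (−3.82) are the ends of the plot.

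Within a plate, rank correlations between the 6 transcripts ran in both directions, and the highest was 0.37. Rank correlations of CPM within a plate were taken for the 15 pairs, over cells that share a plate. On plate 7 they lay between −0.44 and 0.37 with a median of −0.02, against a median of 0.06 over all 2427706 pairs of genes read in at least 10 of the 20 cells. None of the 15 pairs reached 0.4, beside 7.36% of all pairs, and 2 were at −0.4 or below, Dusp1 with Dnajb1 (−0.44) and Dusp1 with Atf4 (−0.41), beside 2.87%. Dnajb1 and Creld2 had reads in fewer than 10 with-MK cells, a filter that the genes behind those shares had passed. Over the 6 pairs of Zfp36, Dusp1, Atf4 and Manf, which pass it, plate 7 values lay between −0.41 and 0.31 with a median of −0.23, and 1 pair was at −0.4 or below. On plate 3 the 15 lay between −0.33 and 0.34 with a median of 0.12, against 0.03 over all pairs of genes read in at least 12 of the 24 cells, and none passed 0.4 (4.18% of all pairs) or −0.4 (2.41%). The mark of 0.4 was set with the values known. A count of 0 of 15 is near those shares and sets the 6 genes apart from no others.

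Pairs from the same arm were the highest on 1 plate each. Manf and Creld2 had 0.37 on plate 7 and 0.26 on plate 3. Zfp36 and Dusp1 had 0.05 on plate 7 and 0.34 on plate 3, and at 10 CPM or more 5 of 24 without-MK cells had both, 5 Zfp36 alone, 3 Dusp1 alone and 11 neither.

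The 3 highest cells of each gene gave 18 places on a plate, counted here as a description with no value for other genes beside it. In with-MK cells the 18 places went to 14 different cells, and 4 cells (5, 9, 18 and 20) held 2 places, the most any held. With-MK cell 9 had the highest Zfp36 (1888 CPM) and high Dusp1 (782 CPM) with 4.00 CPM of Atf4 and no read of Dnajb1 or Creld2. Cell 18 had the highest Manf (478 CPM) and 802 CPM of Dusp1 with no read of Dnajb1, Atf4 or Creld2. In without-MK cells 12 different cells shared the 18 places, and 6 of them (8, 11, 18, 19, 21 and 24) held 2 each. Cell 24 was highest in both Dusp1 and Dnajb1, at 437 and 477 CPM, and had no read of Creld2. Cell 11 had the highest Manf (689 CPM) and the lowest Atf4 (19.3 CPM) of its plate. Cell 19 combined 1219 CPM of Atf4 with 645 CPM of Manf.

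**Figure D3:**
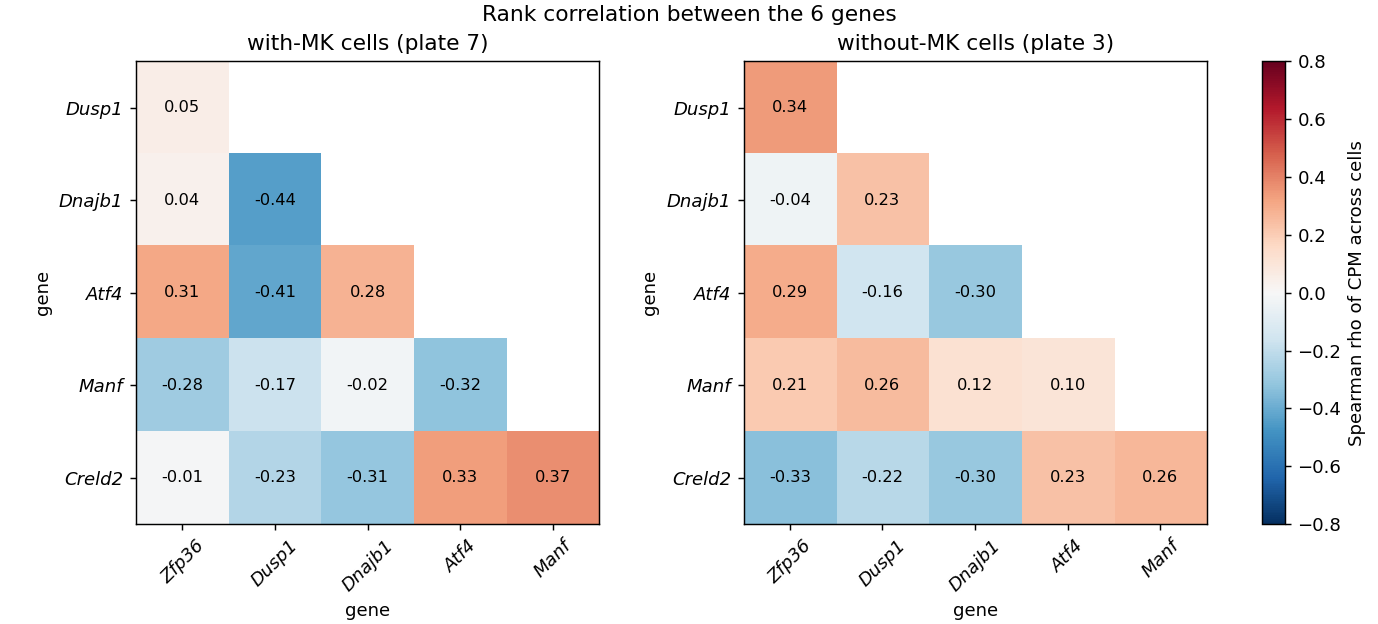
Spearman rank correlation of CPM for the 15 pairs of genes over 20 with-MK cells on plate 7 (left) and 24 without-MK cells on plate 3 (right), with the value printed in each square. No square reaches 0.4 on either plate, and the most negative are Dusp1 with Dnajb1 (−0.44) and Dusp1 with Atf4 (−0.41) on plate 7.

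Manf and Creld2 had positive rank correlations with depth on both plates. The correlations of the other genes with depth changed sign between the plates. These correlations describe cells that share a plate, and CPM has library reads as its divisor. On plate 7 the rank correlation with library reads was 0.46 for Manf and 0.40 for Creld2, and −0.09 for Zfp36, −0.15 for Dusp1, −0.11 for Dnajb1 and −0.23 for Atf4. The median over the 6 genes was −0.10, beside 0.13 over all 2204 genes read in at least 10 of the 20 cells, of which 12.3% reached 0.4. Manf lay above 91.9% of those genes and Creld2 above 87.1%. The 2 ER values were lower without the 2 shallow libraries. Without with-MK cells 16 and 11, which had 0 and 43.4 CPM of Manf and no read of Creld2, the values were 0.32 for Manf and 0.31 for Creld2.

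On plate 3, where no library was below 270537 reads, all 6 values were above 0. They were 0.50 for Manf, 0.45 for Dusp1, 0.24 for Creld2, 0.23 for Atf4, 0.16 for Zfp36 and 0.06 for Dnajb1, with a median of 0.24 beside 0.03 over 2624 genes, of which 3.81% reached 0.4. Manf lay above 98.8% of those genes, Dusp1 above 97.8% and Creld2 above 83.5%. Without cells 22 and 18, whose depth was farthest from the median, Manf had 0.58, Dusp1 0.35 and Creld2 0.14. In that setting Zfp36 and Atf4 each had 0.35, and Dnajb1 had 0.04. With each cell thinned to an equal 310000 reads, the value of Manf with the original depth was 0.31 on plate 7 and 0.51 on plate 3. The number of listed genes with a read went with depth at 0.63 on plate 7 and 0.34 on plate 3.

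**Figure D4:**
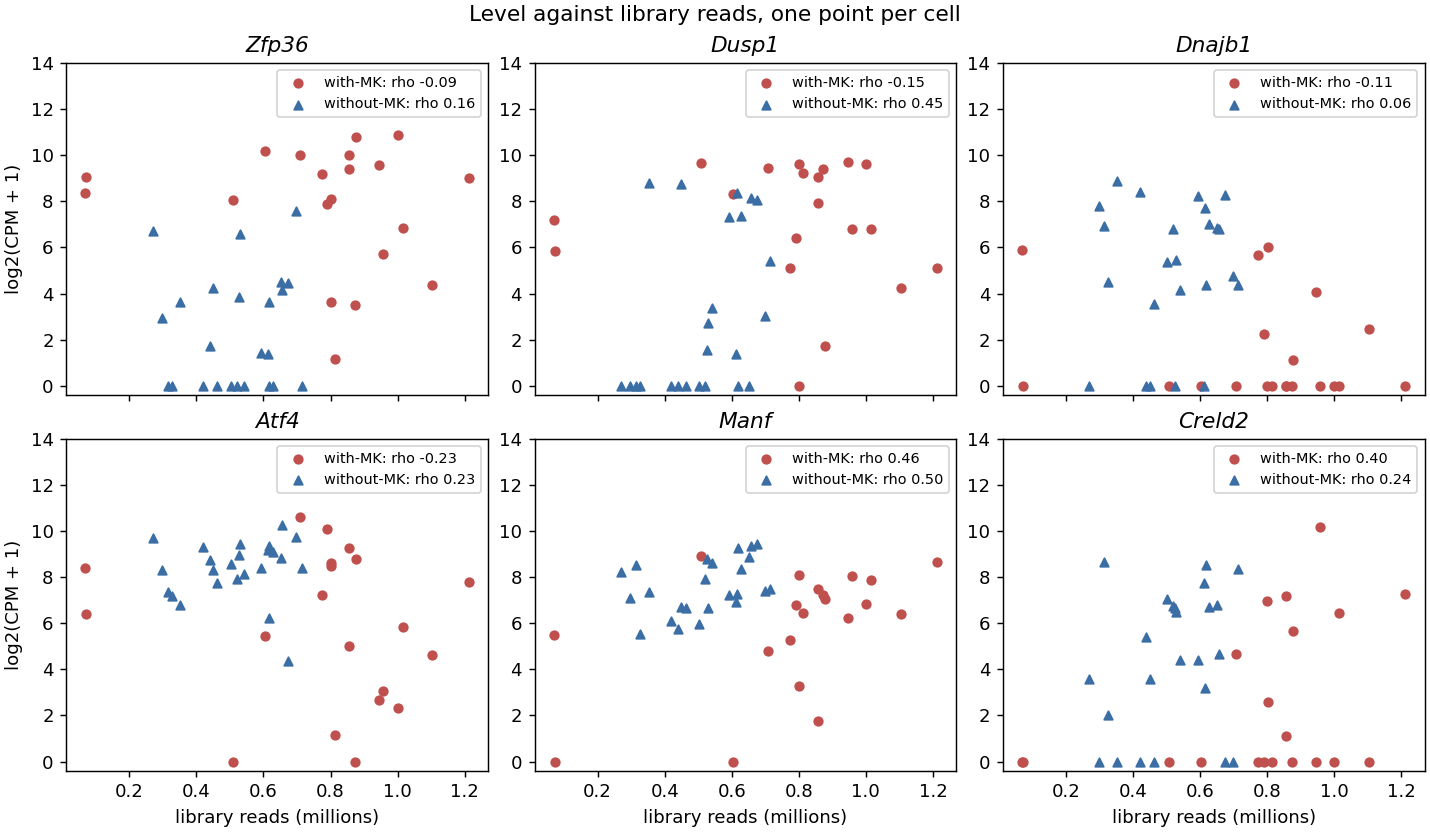
Level of each gene as log2(CPM + 1) against library reads in units of 1e+06, with 1 point per cell, circles for the 20 with-MK cells and triangles for the 24 without-MK cells, and rank correlations in the legends. Manf climbs with depth (0.46 on plate 7 and 0.50 on plate 3), while Zfp36 and Dnajb1 show little slope over all cells and many points on the 0 line. Zfp36 had 0.35 on plate 3 without cells 22 and 18.

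Manf went with other ER genes from cell to cell on both plates. Over the 20 plate 7 cells its rank correlation with the 20 ER list genes read in at least 10 of them had a median of 0.32, beside 0.09 over all 2203 genes, 19 of 20 were above 0, and 9 reached 0.4, beside 9.17% of all genes. Over the 24 plate 3 cells the median with 22 ER genes was 0.32, beside −0.01 over 2623 genes, 21 of 22 were above 0, and 9 reached 0.4, beside 2.63%. The gene most like Manf on plate 7 was Hsp90b1 (0.75), the ER form of HSP90, followed by Psma5 (0.70) and Clasp2 (0.68), a proteasome and a microtubule gene. On plate 3 the 3 most alike were Pdia6 (0.75), a disulfide isomerase gene, Hsp90b1 (0.70) and Hspa5 (0.67), the gene of the ER HSP70 known as BiP. The printed promoters of these 3 genes hold the ER stress response element. Beyond the 6 genes only these 3 were searched by name, and a link between the element and the correlations was not tested. Of 20 ER genes compared on both plates, 18 were above 0 on both and 6 reached 0.4 on both, namely Hsp90b1, Hspa5, Hyou1, Pdia3, Pdia6 and Ssr1. No share over all genes was taken for these counts on both plates. Over all pairs of genes, 1429761 of 2427706 were above 0 on plate 7 and 1888281 of 3441376 on plate 3.

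Since Manf and many genes go with depth, the relation was also taken with the ranks of library reads held constant. The ER median was then 0.29 on plate 7 and 0.30 on plate 3. Without the cell highest in Manf it was 0.39 on plate 7 and 0.32 on plate 3. Over the ER list as a whole, 23.3% of 210 pairs on plate 7 and 21.3% of 253 pairs on plate 3 reached 0.4, beside 7.36% and 4.18% of all pairs. For the immediate early list it was 13.2% of 91 pairs on plate 7 and 7.69% of 78 on plate 3. For the heat shock list it was 3.64% of 55 pairs on plate 7 and 6.06% of 66 on plate 3. The ATF4 list had 3.64% of 55 on plate 7 and 5.45% of 55 on plate 3. Manf also had −0.42 with the nuclear RNA Malat1 on plate 7 and −0.39 with the summed stromal markers on plate 3, and their part in its relation to ER genes was not tested. Xbp1, whose spliced form drives the response, went with Manf at 0.54 on plate 7 and 0.04 on plate 3, and Calr, a lectin chaperone gene, at 0.17 on plate 7 and 0.63 on plate 3. Creld2 had medians with the same list of 0.20 over 21 genes on plate 7, of which 2 reached 0.4 (8.26% of all genes), and 0.26 over 22 genes on plate 3, of which 3 did (5.15%). Whether Manf and Creld2 differ in this was not tested.

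**Figure D5:**
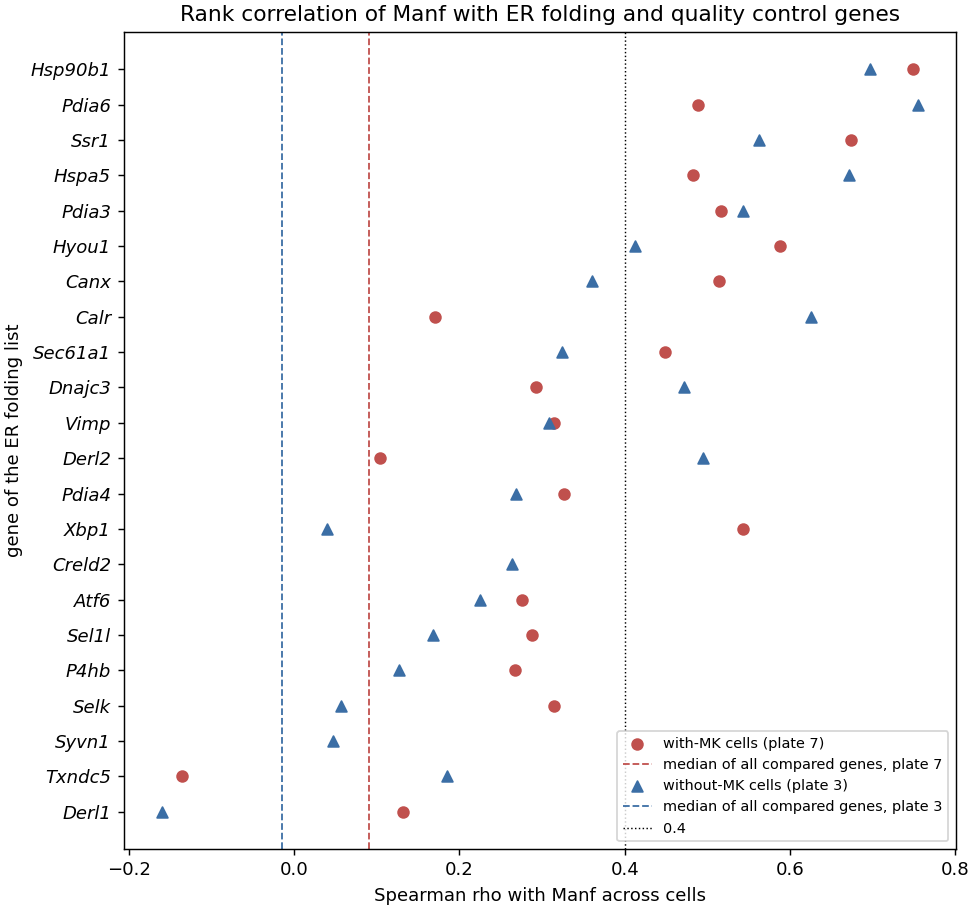
Rank correlation of Manf with each ER folding and quality control gene read in at least 10 of 20 or 12 of 24 cells, as circles for with-MK cells on plate 7 and triangles for without-MK cells on plate 3, with dashed lines at the median over all genes compared (0.09 on plate 7 and −0.01 on plate 3) and a dotted line at 0.4. Nearly all points lie right of their dashed line, with Hsp90b1 at 0.75 on plate 7 and 0.70 on plate 3, and Creld2 and Syvn1 have no circle because fewer than 10 with-MK cells had a read.

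The immediate early genes went with part of their list on plate 7. Zfp36 went with Mcl1, an anti-apoptotic immediate early gene (0.72), Btg1 (0.60) and Ier2 (0.40) on plate 7, 3 of 13 genes at 0.4 or more beside 5.81% of all genes. In the same list 5 of 13 were below 0, the lowest being Rhob (−0.46) and Klf6 (−0.37), and the median was 0.19. On plate 3 none of 12 reached 0.4, beside 2.10%, and its highest was Gadd45b (0.37). Dusp1 reached 0.4 with Tnfaip3 (0.57) and Atf3 (0.48), 2 of 13 on plate 7 beside 4.09%, and with none of 12 on plate 3, beside 2.55%, where its lowest was Zfp36l2 (−0.44). Also on plate 7, Dusp1 went with the summed macrophage markers (0.58) and Actb (0.56), while Atf4 and Creld2 had −0.43 and −0.44 with those markers. Their part in the pair values was not tested.

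For Dnajb1 and Atf4 the medians with their lists were near 0. Dnajb1 had a median of 0.02 with 11 heat shock genes on plate 7, where Hspa8 reached 0.43, 1 of 11 beside 9.35%, and −0.09 on plate 3, where none reached 0.4, beside 2.10%. Atf4 had −0.03 with 10 genes on plate 7, none at 0.4, beside 5.36%. On plate 3 it had 0.02, with Ddit3, which encodes the ATF4 target CHOP, at 0.61 and Nupr1 at 0.40, 2 of 10 beside 4.04%.

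Genes most like these by rank were mostly of other kinds. On plate 7 they were Paip1 (0.73), Mcl1 and Cd302 (0.71) for Zfp36, Tkt (0.72), S100a11 (0.66) and Lrp1 (0.66) for Dusp1, and Ubtd1 (0.77), Naa50 (0.72) and Neat1 (0.70) for Dnajb1. For Atf4 they were Rps10 (0.78), Hnrnpc (0.76) and Rpf1 (0.69), and for Creld2 Tbck (0.79), Ipo5 (0.73) and Cnot4 (0.70). On plate 3 Vma21 (0.62), Hsp90aa1 (0.60) and Zfp655 (0.59) came first for Zfp36, Crebbp (0.64), Gng5 (0.60) and Prrc2b (0.59) for Dusp1, and Emc3 (0.66), Prkaca (0.62) and Rabl6 (0.59) for Dnajb1. For Atf4 they were Pdlim5 (0.71), Foxn3 (0.69) and Yae1d1 (0.63), and for Creld2 4833420G17Rik (0.72), Pus1 (0.69) and Farsb (0.68). Manf alone of the 6 had the same gene, Hsp90b1, among its first 3 on both plates.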

How the data were processed

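Single-cell libraries were made with a SMART-Seq kit and Nextera XT and sequenced on a NextSeq 500, per the labels' protocols. The submitters' processing notes name mm10 and Seurat, but for the aligner, the counter, the annotation and the choice of listed genes nothing is given in the sources used here. The deposited values are a signal of the form reads × 1e+09 / (library reads × a whole number per gene), worked out from the values. Whole reads were recovered for all 99807 values above 0 (tolerance 0.0001). The smallest whole number that made all values of a gene whole was taken, so its reads are known only up to a common factor. Such a factor would change its CPM, its counts of cells at 10 CPM and its counting intervals, but not its ratios or rank correlations. CPM is recovered reads × 1e+06 / library reads. What the whole number per gene stands for is not stated, and CPM is not scaled by gene length. A level can therefore be set beside another cell's for 1 gene, never beside another gene's. 25 genes were at 0 in all 44 cells, and 0 columns were left out.

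Samples were grouped by the treatment field. Without molecular identifiers, reads of PCR copies are not independent molecules, and intervals (Poisson for sums, binomial for ratios, Clopper-Pearson for shares, 95%) cover counting error only. No count model was fitted and no p-value made, since each group is 1 sample. The design of the comparisons assumed recoverable reads, with the deposited signal as an alternative. Group ratios used genes seen in 10 or more of 44 cells. Rank correlations used genes seen in 10 or more of the 20 plate 7 cells, or 12 or more of the 24 plate 3 cells, plus the 6 genes themselves. The 6 genes, the 11 lists and the marks were chosen with earlier results of these data known. Named genes are the 6, the 3 largest ratios of each stress list, the 3 genes most alike to each on each plate, and Actb, Malat1, Ptprc, Adgre1, Sparc and Col1a2 as checks. Other genes, such as Fos, Egr1, Xbp1, Calr, Ahsa1, Hsbp1, Tars, Sars, Eprs and Nars, were named after their values were seen, as were those listed at the 0.4 mark. Col1a2, a collagen gene, had reads in 17 of 20 with-MK cells (38 in all) and 24 of 24 without-MK cells (49254 in all). Malat1, a nuclear RNA, lay at 6623 CPM (median) in with-MK cells, against 5025 CPM in without-MK cells. Alternatives were 3 scalings, thinning, cells left out (for the list genes, added after their values were seen), Pearson correlation and another pseudocount. A top or richest cell that was left out was the cell with the most reads of the gene, which need not have its highest CPM. The scripts were tested on simulated data. Python 3.11.15, numpy 2.4.6, pandas 2.3.3 and scipy 1.17.1 were used.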

Additional observations from a re-analysis of the deposited data

How the results depend on the processing

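The count of genes at least 2-fold higher in with-MK cells was 2 under each of 6 alternatives. The count at least 2-fold lower was 3 with listed reads as the total and 3 without the top cell of each gene, and 1 under the other 4. The log2 ratio of Creld2 was −0.057 with listed reads as the total, −0.018 after thinning, −0.0038 on the deposited signal and −1.02 without the top cells, and no other of the 6 genes changed sign. Without the top cell of each gene, 5 in place of 3 ER genes were at least 2-fold lower and 2 in place of 3 at least 2-fold higher. In the same setting 4 in place of 5 immediate early genes were at least 2-fold lower. For the heat shock list and for the ATF4 list it was 7 in place of 6. The median pair correlation on plate 7 was −0.13 with median-ratio size factors, −0.16 and −0.13 as Pearson's r of log2(CPM + 1) and log2(CPM + 10), and −0.23 over genes read in at least 10 of the 20 cells. On plate 3 it moved by less than 0.1 under all 8 alternatives. The median correlation with depth on plate 3 was 0.34 after thinning and 0.35 without the cells at the ends of depth, and on plate 7 all 7 alternatives lay within 0.1. On plate 7 the cells under 100000 reads and the 2 cells farthest from the median depth were the same, cells 16 and 11. Leaving them out was counted as 2 alternatives, also among the 9 for Manf. The ER median of Manf stayed between 0.29 and 0.41 on plate 7 and between 0.30 and 0.37 on plate 3, under 9 and 8 alternatives. These, and holding library reads constant, were chosen after seeing the data. The cause of these shifts was not tested. Replicates could not be left out, since each group is 1 sample. No paired analysis was possible because the numbers in the labels only count cells and no test was made. Depth limits the shares of cells with 1 to 7 reads, the level of stray Sparc reads in with-MK cells.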
